A study of Mus musculus with 15 samples.

Results

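The genes described here are 37 interferon-induced and MHC class I genes, chosen by name and matched by symbol to the 45706 gene IDs of each library. All 37 were found. They comprise sensors of foreign nucleic acid, signal transducers, the ISG15 system, the IFIT family, other antiviral effectors and the genes that cut, transport and present peptides on MHC class I. The question was whether their transcripts differ after loss of SRF (serum response factor, a transcription factor known for its actin cytoskeleton and immediate-early targets) in oligodendrocyte precursor cells (OPCs) and in oligodendrocytes (OLs), the myelin-making cells that arise from them.

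All 15 libraries came from primary cultures of brain OPCs, purified by immunopanning from SRF-floxed/floxed mice, so the controls carry the floxed alleles too. The 4 control OPC libraries came from cells given AAV DJ-CMV eGFP-deleted cre on day 3 of culture, and the 3 SRF-KO OPC libraries from cells given AAV DJ-CMV eGFP-cre, an adeno-associated virus whose Cre recombinase removes the floxed sequence. Both were frozen 48 hours after infection. The 4 control OL libraries came from cells infected on day 6 with a lentivirus carrying GFP, and the 4 SRF-KO OL libraries from cells infected with a lentivirus carrying CRE-IRES-GFP. Both were frozen on day 3 of differentiation. The treatment tag of the SRF-KO OLs ends in the word control, and their group was taken from the titles. Age and sex of the mice are not given in the labels. Every library was thus infected, no group was left uninfected, and none received Cre without floxed alleles. Both groups of a stage received the same kind of virus. An effect of Cre itself cannot be told apart from loss of SRF, and the stage cannot be told apart from the kind of virus. The labels do not say whether libraries of a group came from separate animals or cultures, so the p-values measure the spread between these libraries, which may be technical.

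Type I interferons are secreted by cells that sense viral nucleic acid and act through the receptor IFNAR and the kinases JAK1 and TYK2. Phosphorylated STAT2 and IRF9 are parts of ISGF3, which binds the interferon-stimulated response element (ISRE) in front of many antiviral genes. Interferon gamma acts through the gamma-activated site (GAS) and raises IRF1, the immunoproteasome, the TAP transporter and MHC class I, the molecules that show peptides from inside the cell to CD8+ T cells. Neural cells of healthy brain are known for low MHC class I, and oligodendrocyte lineage cells can raise it in response to interferon.

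The depth of the OPC libraries was 8964310 to 16026511 expected counts, and that of the OL libraries 4303739 to 13139258, with the shallowest among the knockouts. The 37 genes together took 0.0349% to 0.0475% of the counts of a library. Srf itself, the deleted gene, had 5.57 to 9.67 CPM (counts put on 1 scale for all library depths of a stage, with TMM factors) in the control OPCs against 0.196 to 0.221 in the knockouts, and 7.13 to 9.34 in the control OLs against 2.06 to 4.34. OPC markers summed to 4717 to 6717 CPM in the OPC libraries and OL markers to 13935 to 38774 CPM in the OL libraries. Astrocyte markers were abundant in the OL libraries too, with a sum of 8373 to 33901 CPM. SRF-KO OL replicate 4 stands apart by its mitochondrial share of counts, 14.2% against 9.08% to 11.6% in the other OL libraries. The OL files count whole gene bodies, introns included, and the OPC files spliced transcripts, so levels are not compared between the stages. In bulk RNA, fewer cells of a type and less RNA per cell cannot be told apart.

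RefSeq promoter windows, from 250 bases before to 50 after a transcription start on GRCm38.p6, were found for 28 of the 37 genes. An ISRE core, GAAANNGAAA on either strand, occurred in 12 of the 28 (42.9%), against 3.99% of 27025 genes with such a window. The GAS letters TTCNNNGAA, also read on either strand, occurred in 6 of the 28 (21.4%), against 9.55% of genes. The CArG box, the element that SRF binds, was searched by name and occurred in 0 of the 28, against 1.81% of genes. A match is a run of letters and not a site shown to be bound, and 0 matches say only that those letters are not in these windows. The stretches below lie upstream of the start outside annotated exons and are written 5′ to 3′ on the gene's own strand, with the motif in capitals. They were chosen to show the densest ISRE run of the group (Isg15), the IFIT genes whose copies are hard to separate, the GAS of Irf1, and the ISRE-bearing genes on which the results turn (Gbp3, B2m and Trim30a).
Isg15, chr4:156200862-156200921, minus strand: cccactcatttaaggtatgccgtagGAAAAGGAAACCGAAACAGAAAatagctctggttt
Ifit1, chr19:34640760-34640819, plus strand: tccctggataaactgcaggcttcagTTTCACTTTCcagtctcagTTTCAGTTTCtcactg
Ifit3, chr19:34583338-34583417, plus strand: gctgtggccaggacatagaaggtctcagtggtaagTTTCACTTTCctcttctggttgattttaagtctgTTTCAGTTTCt
Ifit3b, chr19:34607734-34607813, plus strand: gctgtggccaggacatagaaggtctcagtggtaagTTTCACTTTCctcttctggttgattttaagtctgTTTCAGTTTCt
Gbp3, chr3:142559966-142560025, plus strand: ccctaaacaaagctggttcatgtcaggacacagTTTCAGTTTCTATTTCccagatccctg
B2m, chr2:122147523-122147582, plus strand: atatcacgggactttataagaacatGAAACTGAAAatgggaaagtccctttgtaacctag
Trim30a, chr7:104465195-104465254, minus strand: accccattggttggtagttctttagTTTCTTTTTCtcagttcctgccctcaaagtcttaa
Irf1, chr11:53769899-53769958, plus strand: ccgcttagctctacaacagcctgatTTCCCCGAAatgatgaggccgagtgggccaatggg
In Isg15 3 overlapping ISRE cores form 1 run, and the Ifit1, Ifit3 and Ifit3b stretches hold 2 separate cores each. The Ifit3 and Ifit3b stretches are the same letter for letter. These genes are close copies, and how far their transcript reads can be told apart was not tested, so their sum is given beside them. The windows of Tap1, Irf9 and Trim25, named below, held neither the ISRE core nor the GAS letters.

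In control OPCs the group was led by the MHC class I genes. On the length-corrected TPM scale, B2m, the light chain of MHC class I, had 158 ± 16.7 TPM (SD, n = 4), and the heavy chains H2-D1 and H2-K1 had 74.6 ± 8.61 and 70.4 ± 9.90 TPM. H2-D1 and H2-K1 did not differ beyond their spread, and near-identical reads can be shared between them. Ifit2, which binds viral RNA and restrains its translation, followed with 20.9 ± 3.33 TPM, and then Psmb10 (12.7 ± 2.13), Ifi27 (11.4 ± 1.33), Irf1 (10.2 ± 1.11) and Tap1 (9.23 ± 0.929), whose neighbours in that order differed by less than or about their SDs. Most antiviral genes were near the floor of detection. Of the 37 genes, 4 had 0 counts in all 7 OPC libraries (Zbp1, Mx1, Trim30a and Parp14), which allows up to 0.0358 CPM over the stage when 3 counts are taken as the limit of a count of 0. Such limits cover counting error only. Isg15, the ubiquitin-like protein that interferon induces strongly, had 6 counts in all OPC libraries together and 1 in all OL libraries together. In the OL libraries 1 gene had no count, Oas1a, which makes the messenger that activates RNase L, with a limit of 0.0384 CPM.

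**Figure D1:**
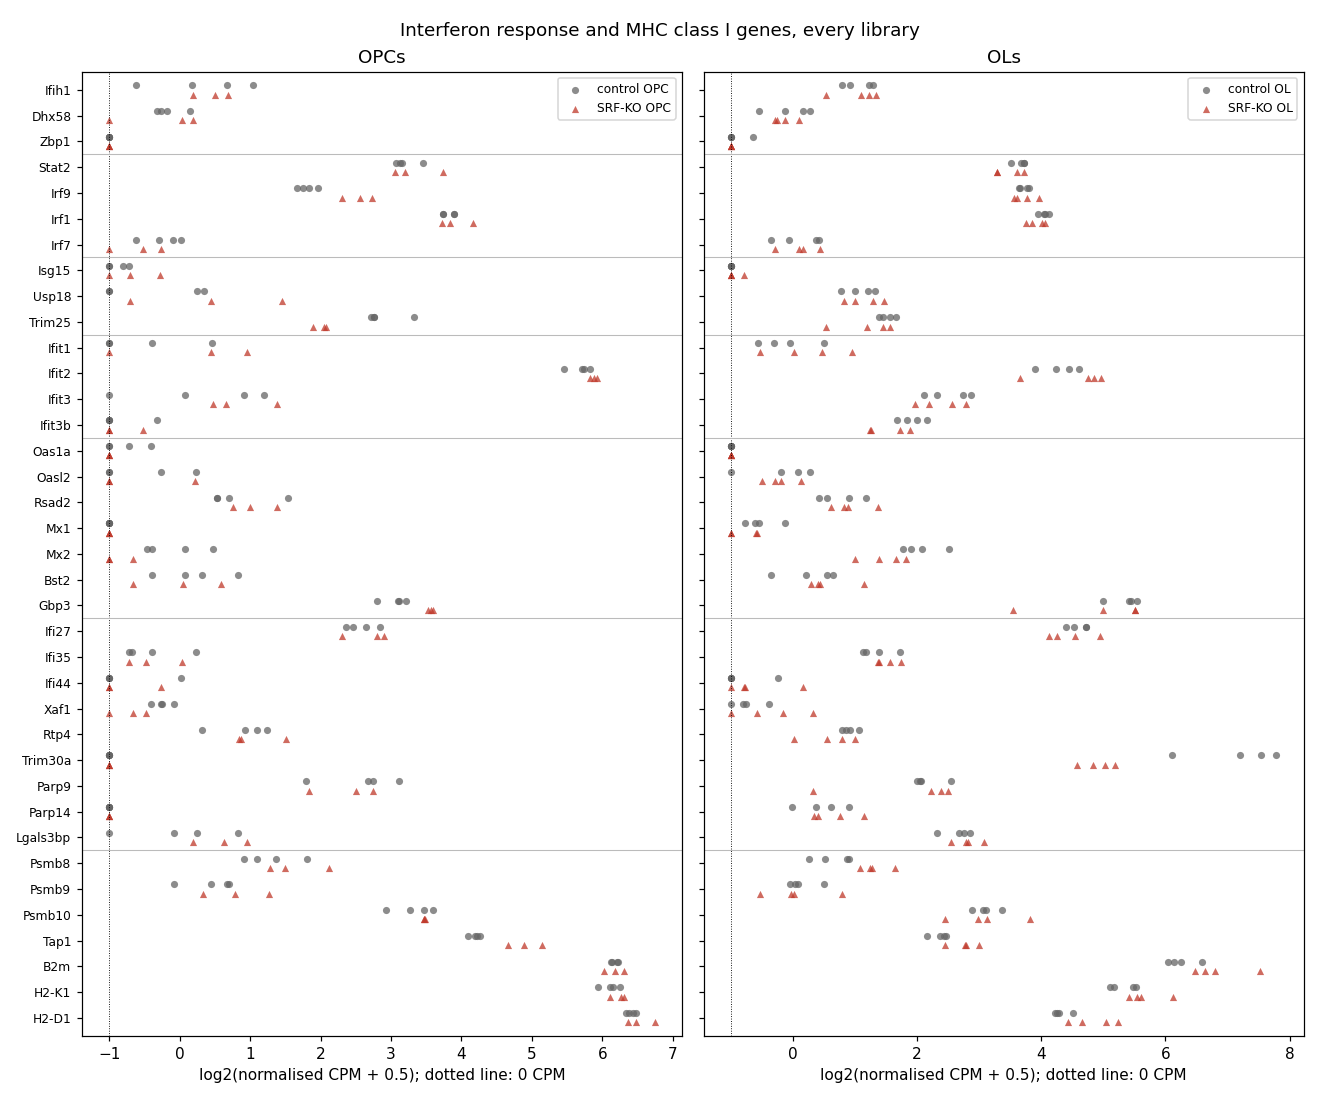
Level of each of the 37 genes in every library, as log2 of TMM-normalised CPM plus 0.5, in OPCs (left) and OLs (right). Grey circles are control libraries, red triangles SRF-KO libraries, and lines part the 7 role classes; most groups overlap, and 4 genes in OPCs and 1 in OLs sit at 0 CPM in every library.

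In OPCs, 21 of the 37 genes passed the filter on low counts and none was called by edgeR's quasi-likelihood test at a Benjamini-Hochberg adjusted p under 0.05 (smallest adjusted p 0.117, for Tap1). Of all 13271 genes tested, 9 were called (0.0678%), 3 higher and 6 lower in the knockout, or 6 and 7 when library totals replace TMM scaling. DESeq2 called 1 of the 21 (Tap1) and limma voom called 0. At an unadjusted p under 0.05 in edgeR, 3 of the 21 were higher (14.3%, Tap1, Irf9 and Gbp3) and 1 was lower (4.76%, Trim25), against 5.57% higher and 6.33% lower over all genes. All knockout libraries lay above all controls for 4 of the 21 (19.0%), against 5.96% of all genes, and below for 1 (4.76%), against 6.25%. The fold change was positive for 19 of the 21, and their median log2 fold change was 0.19, against 49.8% positive and a median of -0.001 over all genes. The filter asks for counts in only as many libraries as the smaller group holds, so a scarce gene could pass on the knockout libraries alone, and these counts over the genes tested are a description. Without the filter, 33 of the genes entered the fit and their median was 0.11.

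**Figure D2:**
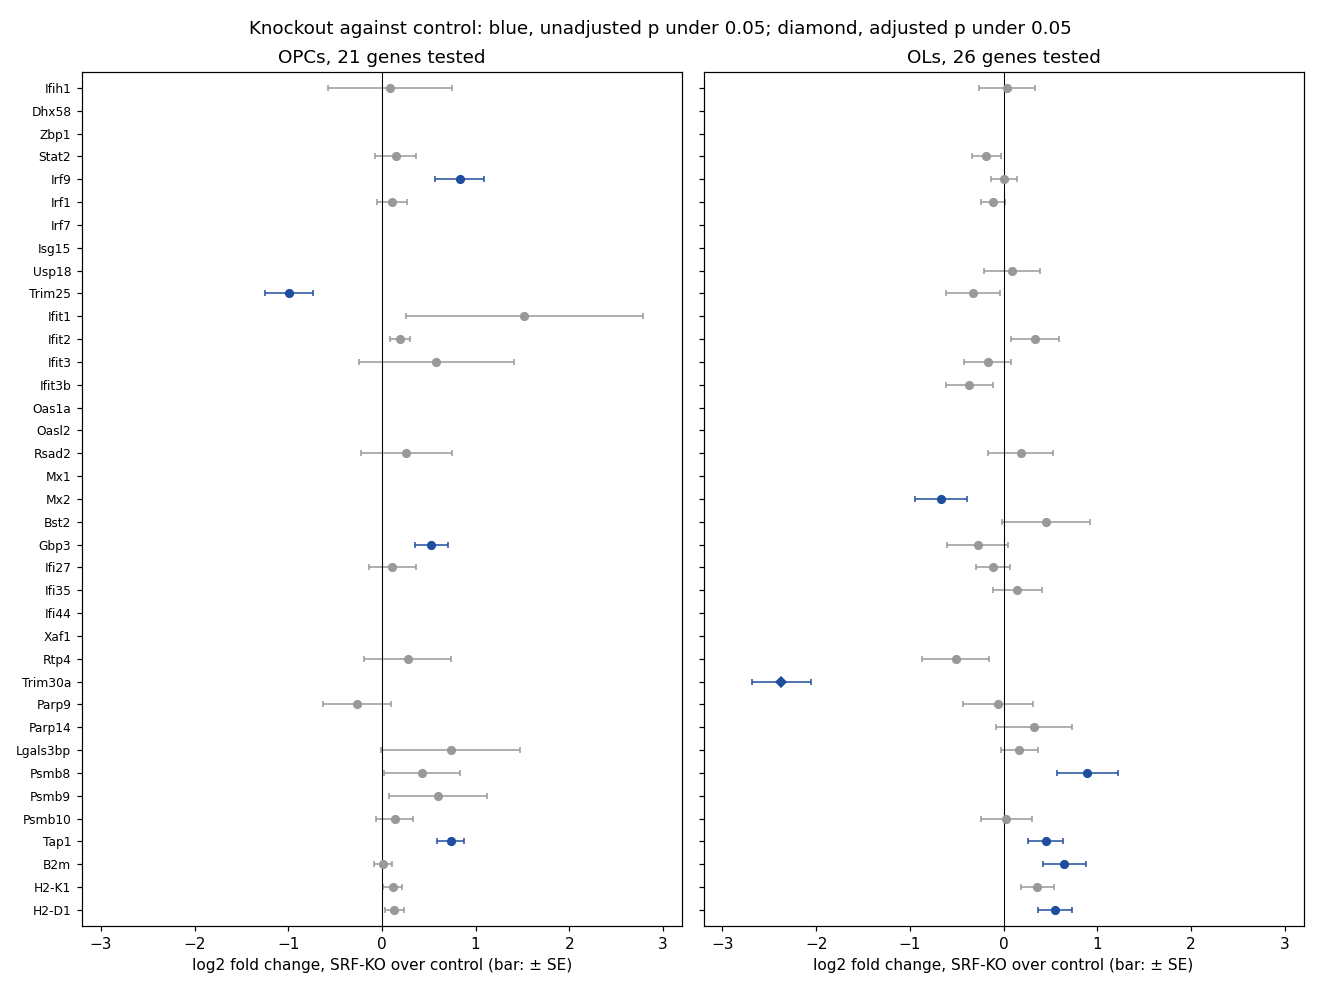
Log2 fold change of SRF-KO over control from edgeR, with its SE as a bar, for the 21 genes tested in OPCs (left) and the 26 tested in OLs (right). Blue marks an unadjusted p under 0.05 and the diamond an adjusted p under 0.05; a row without a point is a gene that did not pass the filter.

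Among the sensors, Ifih1 (MDA5, which detects long double-stranded RNA) was the 1 gene of 3 tested. It had 0.149, 0.633, 1.10 and 1.55 CPM in control OPC replicates 1 to 4 against 1.10, 0.917 and 0.644 in replicates 1 to 3 of the SRF-KO OPCs. The groups overlapped over nearly their whole range. Dhx58 (LGP2, a regulator of MDA5) stayed at or below 0.644 CPM in every OPC library, and Zbp1, a sensor of Z-form nucleic acid, had no count.

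Irf9, the DNA-binding partner of the STATs in ISGF3 (ENSMUSG00000002325, protein-coding, GRCm38 chromosome 14, 55603571 to 55610030, plus strand), measured higher in the SRF-KO OPCs. It had 3.06, 2.85, 3.40 and 2.66 CPM in control OPC replicates 1 to 4 against 4.42, 5.37 and 6.12 in the knockouts. Every knockout library lay above every control. Its log2 fold change of 0.83 (SE 0.26) came with an unadjusted p of 0.00924 and an adjusted p of 0.290 in edgeR. Rnf31 overlaps Irf9 on the same strand, so some reads could belong to either.
Its partner Stat2 had 8.43, 10.4, 8.24 and 7.91 CPM in the controls and 7.84, 8.64 and 12.8 in the knockouts, where SRF-KO OPC replicate 3 alone exceeded all controls. Irf1, which activates MHC class I genes, had 12.9, 14.4, 12.9 and 14.4 CPM in the controls and 12.7, 17.4 and 13.9 in the knockouts, with only SRF-KO OPC replicate 2 above all controls. Irf7, the factor that amplifies interferon alpha genes, was not tested and reached at most 0.516 CPM.

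In the ISG15 system, Trim25, a ubiquitin and ISG15 ligase that acts on RIG-I (ENSMUSG00000000275, protein-coding, chromosome 11, 88999376 to 89020293, plus strand), went against the direction of most of the group. It had 9.55, 6.08, 6.26 and 6.27 CPM in the controls and 3.64, 3.73 and 3.22 in the knockouts. Every knockout library lay below every control, and control OPC replicate 1 stood high among the controls. A log2 fold change of -0.99 (SE 0.26) came with an unadjusted p of 0.00257 and an adjusted p of 0.219 in edgeR. Without control OPC replicate 1 it was -0.81. Usp18, the protease that removes ISG15 and damps receptor signalling, had 34 of its 58 OPC counts in SRF-KO OPC replicate 2 and was not tested.

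The IFIT genes showed 1 abundant and 3 scarce transcripts. Ifit2 had 43.5, 52.9, 52.1 and 56.1 CPM in the controls and 60.2, 56.4 and 58.8 in the knockouts. The knockout libraries lay above all controls by a narrow margin, and the log2 fold change of 0.19 (SE 0.11) gave an adjusted p of 0.496 in edgeR. Ifit1, which recognises viral RNA without the cap methylation of host RNA, had 0, 0, 0.879 and 0.258 CPM in the controls and 1.44, 0 and 0.859 in the knockouts. Its 32 counts over all OPC libraries left a log2 fold change of 1.52 with an SE of 1.27. Ifit3, a partner of Ifit1, ranged from 0 to 1.79 CPM in the controls and from 0.884 to 2.10 in the knockouts. Summed with its copy Ifit3b it had 2.09, 0, 0.549 and 1.38 CPM in the controls and 0.884, 2.29 and 1.07 in the knockouts, with the groups overlapping.

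Among the other antiviral effectors, Gbp3, an interferon-induced guanylate-binding GTPase (ENSMUSG00000028268, protein-coding, chromosome 3, 142560026 to 142573209, plus strand), measured higher in the SRF-KO OPCs. It had 6.49, 8.11, 8.79 and 8.16 CPM in the controls and 11.0, 11.6 and 11.4 in the knockouts. The knockout libraries agreed within 1 CPM and all lay above the controls. For Gbp3 the log2 fold change was 0.53 (SE 0.18), with an unadjusted p of 0.0130 and an adjusted p of 0.307 in edgeR. On the deposited TPM it was 0.32, with an unadjusted p of 0.118 in limma. Rsad2 (viperin, which makes a chain-terminating nucleotide) had 1.12, 0.950, 2.42 and 0.945 CPM in the controls and 2.10, 1.51 and 1.18 in the knockouts, and the groups overlapped. Oas1a, Oasl2, Mx2 and Bst2, the last a tether that holds budding virions at the cell surface, were too scarce to test, with no library above 1.27 CPM. Mx2, which belongs to the dynamin-like Mx GTPases, had 0.224, 0.887, 0.549 and 0.258 CPM in the controls and 0, 0.131 and 0 in the knockouts, so its knockout libraries lay below all controls on 2 counts in all.

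Of the 9 remaining interferon-induced genes, 4 were tested and none reached an unadjusted p under 0.05. Lgals3bp, a secreted glycoprotein, had 1.27, 0.443, 0 and 0.687 CPM in the controls and 1.44, 1.05 and 0.644 in the knockouts. Parp9, an ADP-ribosyltransferase partner of Dtx3l, had 5.89, 2.98, 8.13 and 6.19 CPM in the controls and 5.19, 3.08 and 6.23 in the knockouts, and its fold change was, with that of Trim25, 1 of the 2 negative ones. Ifi27, a mitochondrial and nuclear envelope protein, ranged from 4.61 to 6.65 CPM in the controls and from 4.42 to 6.94 in the knockouts, and Rtp4, a chaperone of membrane receptors, from 0.746 to 1.87 and from 1.29 to 2.36. The groups overlapped for each of these 4 genes. Ifi35, Ifi44 and Xaf1 stayed at or below 0.672 CPM.

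All 7 genes of MHC class I presentation were tested in OPCs, and the difference lay in Tap1. Tap1 encodes a chain of the transporter that carries peptides into the endoplasmic reticulum (ENSMUSG00000037321, protein-coding, chromosome 17, 34187553 to 34197225, plus strand). It had 17.8, 18.6, 18.2 and 16.5 CPM in the controls and 24.7, 34.7 and 29.0 in the knockouts. All knockout libraries lay above the narrow range of the controls, with SRF-KO OPC replicate 2 the highest. For Tap1 the log2 fold change was 0.73 (SE 0.14), with an unadjusted p of 0.000302 and an adjusted p of 0.117 in edgeR. The adjusted p was 0.00312 in DESeq2 and 0.0252 in edgeR without the filter on low counts, so the call depends on the tool and the filter.
Psmb9, an immunoproteasome subunit, overlaps Tap1 on the opposite strand, and the libraries do not mark strand. Psmb9 alone had 0.443 to 1.12 CPM in the controls and 0.752 to 1.90 in the knockouts, and the sum of the pair was 18.9, 19.1, 19.3 and 17.4 CPM in the controls and 26.0, 36.6 and 29.8 in the knockouts. The order of the groups was thus the same for the sum.
The genes that TAP serves overlapped between the groups. B2m had 70.2, 73.3, 74.1 and 68.9 CPM in the controls and 64.8, 78.9 and 72.3 in the knockouts, a log2 fold change of 0.01 (SE 0.09). H2-D1 had 82.6, 88.7, 86.3 and 80.4 CPM in the controls and 81.8, 107 and 89.0 in the knockouts, with SRF-KO OPC replicate 2 the highest. H2-K1 had 68.8, 70.8, 75.8 and 60.8 CPM in the controls and 79.0, 76.5 and 68.5 in the knockouts. Both heavy chains overlapped between the groups, with log2 fold changes of 0.13 (SE 0.10) and 0.11 (SE 0.10). The immunoproteasome subunits Psmb8 and Psmb10 also overlapped, at 1.38 to 2.98 against 1.93 to 3.86 CPM and at 7.13 to 11.7 against 10.60 to 10.63 CPM.

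**Figure D3:**
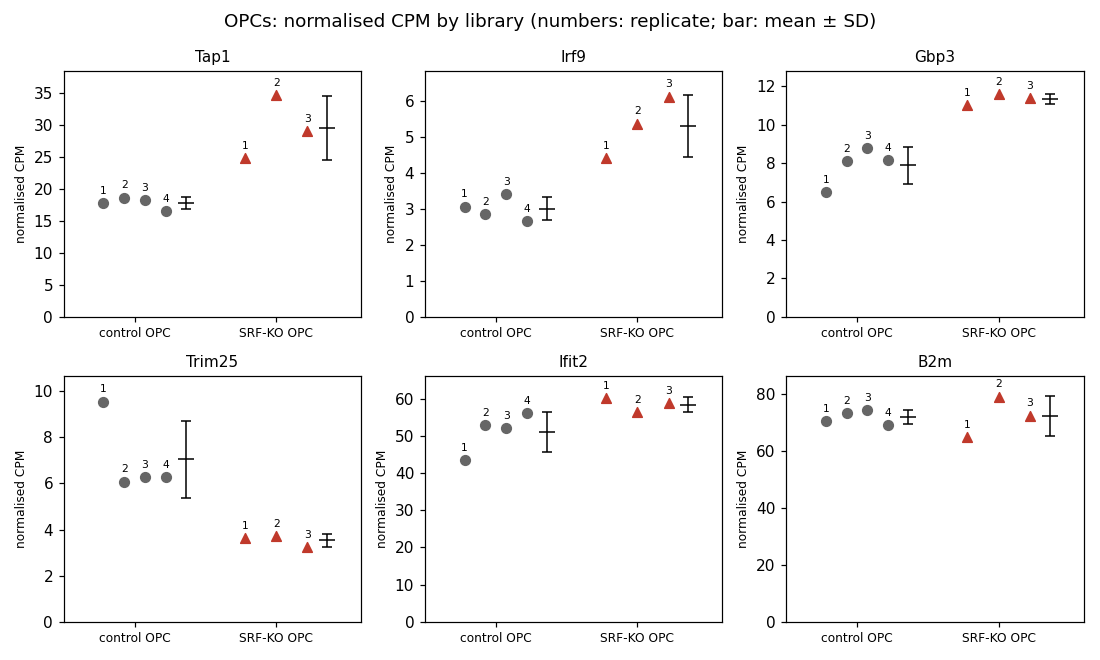
Normalised CPM by library for Tap1, Irf9, Gbp3, Trim25, Ifit2 and B2m in control OPCs (grey circles, n = 4) and SRF-KO OPCs (red triangles, n = 3), numbered by replicate, with mean ± SD in black. Tap1, Irf9, Gbp3 and Ifit2 do not overlap and lie higher in the knockouts, Trim25 does not overlap and lies lower, and B2m overlaps.

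The lead of a single SRF-KO OPC library was examined for all 21 genes tested. SRF-KO OPC replicate 2 was the highest knockout library for 11 of the 21, against 38.1% of all genes tested. Relative to the mean of the controls on the log2(CPM + 0.5) scale, the median of the 21 was 0.20, 0.32 and 0.16 in SRF-KO OPC replicates 1, 2 and 3, and 13, 17 and 14 of them lay above that mean. The medians over all genes tested were 0.0095, 0.015 and 0.0061 in the same libraries. Leaving out SRF-KO OPC replicate 2 took the median log2 fold change of the 21 from 0.19 to 0.08. Irf9, Gbp3, Tap1 and Trim25 kept an unadjusted p under 0.05 without any 1 of the 7 libraries, and Tap1 had a log2 fold change of 0.60 without SRF-KO OPC replicate 2.
Marker lists of other cell types were set beside these values. The microglia and macrophage markers Aif1, Cx3cr1, Itgam, C1qa, C1qb, C1qc, Tyrobp and Tmem119 were at 0 in every OPC library, 8 of 12 in the controls and, with Csf1r, 9 of 12 in the knockouts. The 8 astrocyte markers summed to 1418 to 1499 CPM in the controls against 1466 to 1623 in the knockouts. At an unadjusted p under 0.05 in edgeR, Gfap, Aqp4, Slc1a3 and Gja1 were higher (50%) and Sox9 was lower (12.5%). Over all genes 5.57% were higher and 6.33% lower. The 7 OPC markers summed to 6364 to 6717 CPM in the controls against 4717 to 6178 in the knockouts. Of these, Olig1 and Olig2 were lower at that threshold (28.6%) and 0 were higher. The part of astrocyte or OPC content in the values of Tap1, Irf9, Gbp3 and Trim25 was not tested.

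**Figure D4:**
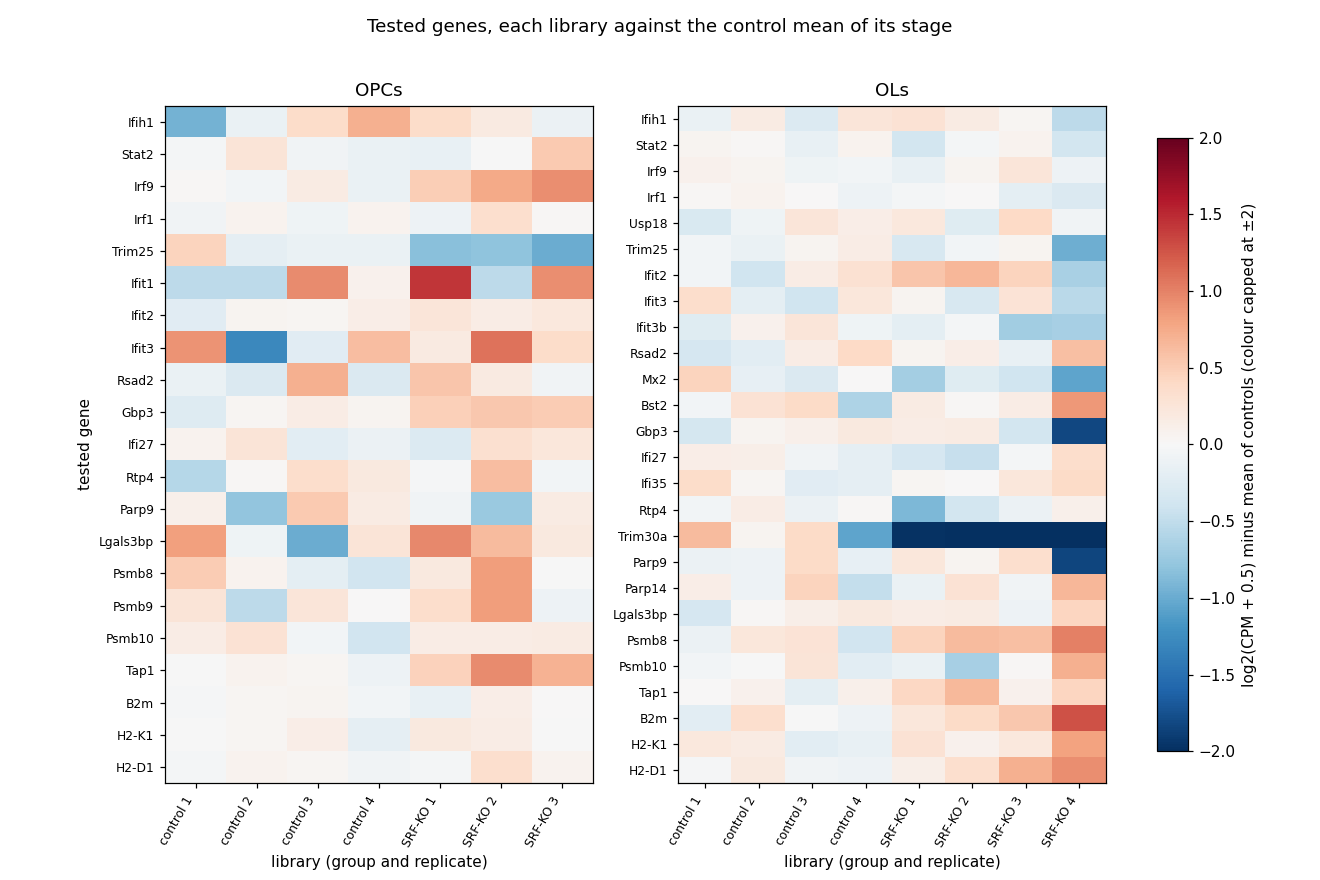
Each tested gene in each library as log2(CPM + 0.5) minus the mean of the controls of its stage (colour; red higher, blue lower, capped at ±2), for 21 genes in OPCs (left) and 26 in OLs (right). SRF-KO OPC replicate 2 has 17 of 21 genes above the control mean, and in OLs Trim30a is low in all 4 SRF-KO libraries while B2m and H2-D1 are reddest in SRF-KO OL replicate 4.

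In OLs, 26 of the 37 genes passed the filter and 1 was called, Trim30a, which fell in the SRF-KO OLs. Of all 15193 genes tested, 45 were called (0.296%), 10 higher and 35 lower, or 39 and 35 with library totals in place of TMM scaling, which moved the median log2 fold change of all genes from 0.02 to 0.24. At an unadjusted p under 0.05 in edgeR, 4 of the 26 were higher (15.4%, B2m, H2-D1, Psmb8 and Tap1) and 2 were lower (7.69%, Mx2 and Trim30a), against 5.84% higher and 5.73% lower over all genes. All knockout libraries lay above all controls for 1 of the 26 (Psmb8, 3.85%) and below for 1 (Trim30a, 3.85%), against 4.19% and 3.9% of all genes, shares near the background. The fold change was positive for 15 of the 26 and their median was 0.03, against 53.9% positive and a median of 0.02 over all genes. Outside the MHC class I genes, 0 of the genes tested in OLs were higher at an unadjusted p under 0.05.

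All 6 MHC class I genes tested in OLs had a positive fold change, against 53.9% of all genes. Their median log2 fold change was 0.50, against 0.02 over all genes. At an unadjusted p under 0.05 in edgeR, 4 of the 6 were higher (66.7%), against 5.84% of all genes. None was called after adjustment. B2m (ENSMUSG00000060802, protein-coding, chromosome 2, 122147686 to 122153083, plus strand) had 65.1, 95.8, 75.4 and 70.4 CPM in control OL replicates 1 to 4 and 88.4, 98.9, 111 and 184 in SRF-KO OL replicates 1 to 4. The groups overlapped through control OL replicate 2, and SRF-KO OL replicate 4 stood far above the other libraries. For B2m the log2 fold change was 0.65 (SE 0.23), with an unadjusted p of 0.0154 and an adjusted p of 0.304 in edgeR. Without SRF-KO OL replicate 4 it was 0.34, with an unadjusted p of 0.0193.
H2-D1 (ENSMUSG00000073411, protein-coding, chromosome 17, 35262730 to 35267499, plus strand) had 19.1, 22.2, 18.5 and 18.2 CPM in the controls and 21.1, 24.7, 32.3 and 37.3 in the knockouts. SRF-KO OL replicate 1 fell within the range of the controls and the other knockouts lay above it. The log2 fold change was 0.55 (SE 0.18), with an adjusted p of 0.271 in edgeR, and 0.36 without SRF-KO OL replicate 4.
H2-K1 had 45.8, 44.3, 34.0 and 35.7 CPM in the controls and 48.4, 42.0, 46.1 and 69.4 in the knockouts, a log2 fold change of 0.36 (SE 0.18) with an adjusted p of 0.482 in edgeR. The sum of H2-K1 and H2-D1, which does not depend on how shared reads were split, was 64.9, 66.5, 52.5 and 53.9 CPM in the controls and 69.5, 66.7, 78.4 and 107 in the knockouts. On the sum every knockout library lay above every control, SRF-KO OL replicate 2 barely so.

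The peptide supply genes of this class were scarce in OLs. Psmb8, the LMP7 subunit of the immunoproteasome (ENSMUSG00000024338, protein-coding, chromosome 17, 34197721 to 34201454, plus strand), had 0.930, 1.32, 1.38 and 0.699 CPM in the controls and 1.61, 1.92, 1.85 and 2.64 in the knockouts. Every knockout library lay above every control, on 9 to 24 counts a library. The log2 fold change was 0.90 (SE 0.32), with an adjusted p of 0.311 in edgeR. Tap1 had 4.65, 4.92, 3.98 and 5.03 CPM in the controls and 6.35, 7.50, 4.94 and 6.41 in the knockouts, where SRF-KO OL replicate 3 fell among the controls. Its log2 fold change was 0.45 (SE 0.19), with an unadjusted p of 0.0332 and an adjusted p of 0.387 in edgeR. Summed with Psmb9, it had 4.90 to 5.59 CPM in the controls and 6.17 to 7.98 in the knockouts, without overlap. Psmb10, a further immunoproteasome subunit, had 6.92 to 9.79 CPM in the controls and 4.95 to 13.6 in the knockouts, and Psmb9 did not pass the filter.

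**Figure D5:**
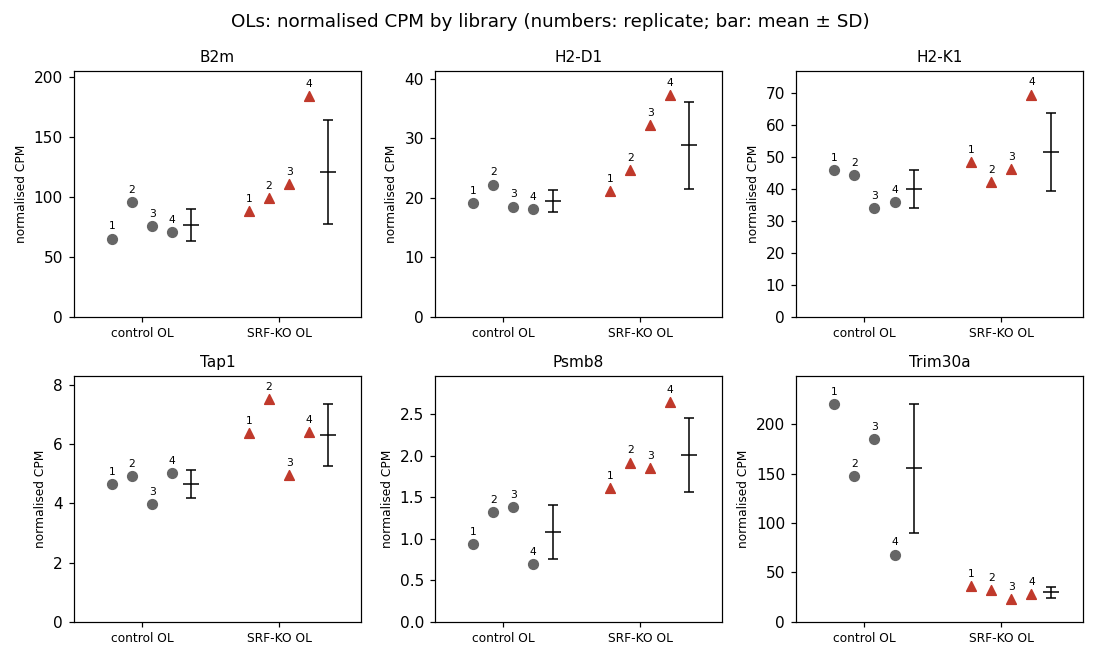
Normalised CPM by library for B2m, H2-D1, H2-K1, Tap1, Psmb8 and Trim30a in control OLs (grey circles) and SRF-KO OLs (red triangles), 4 libraries each, numbered by replicate, with mean ± SD in black. Psmb8 and Trim30a do not overlap between the groups, and SRF-KO OL replicate 4 is the highest library for B2m, H2-D1, H2-K1 and Psmb8.

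Trim30a, a TRIM protein known to restrain inflammatory signalling in macrophages (ENSMUSG00000030921, protein-coding, chromosome 7, 104409025 to 104465193, minus strand), had 220, 147, 185 and 68.0 CPM in control OL replicates 1 to 4 and 35.8, 32.2, 23.2 and 27.9 in SRF-KO OL replicates 1 to 4. Every knockout library lay below every control, and control OL replicate 4 was the lowest control by a wide margin. The log2 fold change was -2.37 (SE 0.31), with an adjusted p of 0.0121 in edgeR. The adjusted p was above 0.05 without control OL replicate 2 (0.0518) or 3 (0.0544) or SRF-KO OL replicate 2 (0.0553) or 3 (0.0903), with the replicate numbers as a block (0.0693), and on the deposited TPM in limma (0.0946), where the log2 fold change was -1.43.
Trim30a also has the longest counted gene body of the group in OLs. The part of the way of counting in its values was not tested. The same gene had 0 counts in all 7 OPC libraries, where the counted transcript is 1345 bases long, and 974 to 2367 counts per control OL library, where the counted gene body is 56169 bases long and takes in introns. The small gene Gm25405, which lies inside it on the opposite strand, had 0 counts in all libraries, and the related Trim30b, Trim30c and Trim30d had at most 1.44 CPM. Which bases of the gene body the OL reads cover is not part of these tables.
Markers of other cell types were set beside Trim30a. None of the 12 microglia and macrophage markers was at 0 in every library of a group. Among them Aif1 stayed at or below 0.377 CPM and Ptprc at or below 0.878, and Cx3cr1 had 1.07 to 4.33 CPM in the controls and 1.32 to 4.23 in the knockouts. The 8 astrocyte markers summed to 16807 to 33901 CPM against 8373 to 13656, and the 7 OL markers to 20331 to 38774 against 13935 to 19952. Most of the astrocyte sum was Gfap, at 12256 to 28228 CPM against 4778 to 8977. Gfap and S100b were lower at an unadjusted p under 0.05 in edgeR (25.0%), against 5.73% of all genes. Apart from Gfap and Sox9, the astrocyte markers overlapped between the groups. Of the OL markers, 5 of 7 were lower at that threshold (71.4%). The part of cell content in the fall of Trim30a, and in the higher MHC class I values, was not tested.

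Irf9, which did not overlap between the groups in OPCs, overlapped in OLs. It had 13.4, 13.1, 11.9 and 12.2 CPM in the control OLs and 11.4, 13.1, 15.01 and 11.7 in the SRF-KO OLs, a log2 fold change of 0.01 (SE 0.14). Stat2 had 12.7, 12.3, 10.9 and 12.7 CPM in the controls and 9.23, 11.7, 12.8 and 9.24 in the knockouts, and Irf1 had 16.2, 16.9, 16.1 and 14.95 against 15.6, 16.1, 14.0 and 13.0. All 3 factors overlapped between the groups. Ifih1 ranged from 1.22 to 1.96 CPM in the controls and from 0.943 to 2.03 in the knockouts.
Trim25 had 2.23, 2.11, 2.45 and 2.65 CPM in the controls and 1.78, 2.23, 2.47 and 0.943 in the knockouts, with a log2 fold change of -0.33 (SE 0.29). Usp18 had 1.21, 1.49, 1.99 and 1.82 CPM in the controls and 1.95, 1.28, 2.26 and 1.51 in the knockouts. Both genes of the ISG15 system overlapped between the groups.

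In the IFIT family Ifit2 had 18.4, 14.5, 21.4 and 23.9 CPM in the control OLs and 28.5, 30.8, 26.3 and 12.1 in the SRF-KO OLs. SRF-KO OL replicates 1 to 3 lay above all controls and replicate 4 below them, and the log2 fold change was 0.34 (SE 0.25) with an adjusted p of 0.674 in edgeR. Without SRF-KO OL replicate 4 it was 0.53, with an unadjusted p of 0.00546 and an adjusted p of 0.0752. Ifit3b had 2.70, 3.52, 3.98 and 3.07 CPM in the controls and 2.80, 3.19, 1.85 and 1.89 in the knockouts. Summed with Ifit3 it had 7.80 to 9.49 CPM in the controls and 5.28 to 8.23 in the knockouts, and the groups overlapped.
Gbp3 had 31.5, 42.2, 43.3 and 46.3 CPM in the controls and 45.0, 45.3, 31.3 and 11.1 in the knockouts, so SRF-KO OL replicate 4 was far below every other library. Its log2 fold change of -0.28 (SE 0.33) was -0.02 without that library. Mx2, whose gene model is annotated as a polymorphic pseudogene (ENSMUSG00000023341, chromosome 16, 97535308 to 97560900, plus strand), had 5.21, 3.25, 2.91 and 3.70 CPM in the controls and 2.12, 3.03, 2.67 and 1.51 in the knockouts. The groups overlapped only between control OL replicate 3 and SRF-KO OL replicate 2, and the log2 fold change was -0.67 (SE 0.28) with an unadjusted p of 0.0325 and an adjusted p of 0.386 in edgeR. With library totals it was -0.45, with an unadjusted p of 0.144. Bst2 had 0.651, 0.967, 1.07 and 0.279 CPM in the controls and 0.847, 0.718, 0.823 and 1.70 in the knockouts, on 4 to 11 counts a library. Rsad2 ranged from 0.837 to 1.75 CPM in the controls and from 1.03 to 2.07 in the knockouts. Of the genes too scarce to test in OLs, Ifit1 reached 1.44 CPM and Psmb9 1.23, while Dhx58, Zbp1, Irf7, Isg15, Oasl2 and Mx1 stayed at or below 0.847 in every library.
Rtp4 had 1.30, 1.58, 1.22 and 1.40 CPM in the controls and 0.508, 0.958, 1.23 and 1.51 in the knockouts, with an adjusted p of 0.643 in edgeR. Of the rest of its class, Ifi27 (20.7 to 25.9 against 16.9 to 30.4 CPM), Ifi35 (1.68 to 2.79 against 2.07 to 2.83), Parp9 (3.49 to 5.36 against 0.755 to 5.14), Parp14 (0.489 to 1.38 against 0.762 to 1.70) and Lgals3bp (4.47 to 6.71 against 5.35 to 7.92) overlapped between the groups, and Ifi44 and Xaf1 stayed below 1 CPM. SRF-KO OL replicate 4 was the highest knockout library for 12 of the 26 genes tested, against 39.4% of all genes, and it held the highest or lowest value of all OL libraries in, among others, Bst2, B2m, H2-K1, H2-D1, Psmb8, Gbp3 and Parp9.

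The difference between the stages was tested in 1 fit over all 15 libraries, in which 28 of the 37 genes were tested. None was called in edgeR (smallest adjusted p 0.240), nor in DESeq2 or limma voom, against 18 of 16135 genes (0.112%). The 28 include Trim30a and Parp14, which had no count in any OPC library. Their difference between the stages could not be estimated (SE 7168 and 439), so for them the lack of a call says nothing. An unadjusted p under 0.05 was reached by 3 of the 28 (10.7%), near the 9.25% of all genes. The effect in OLs minus that in OPCs was -0.84 (SE 0.24) on the log2 scale for Irf9, 0.62 (SE 0.27) for B2m and 2.13 (SE 0.94) for Mx2. For Tap1, higher at an unadjusted p under 0.05 in both stages, the fold changes were 0.73 in OPCs and 0.45 in OLs. These comparisons share no libraries between the stages.

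The steps before and around these genes were measured from further lists. Of 13 interferon genes, 12 had 0 counts in every OPC library and 10 in every OL library, and none could be tested. The exceptions were Ifna13 at 0.262 CPM in SRF-KO OPC replicate 2, and Ifna2, Ifnk and Ifng at no more than 0.206 CPM in single OL libraries or a pair of them. Interferon beta (Ifnb1) had no count in any library. The receptors and kinases were present in both stages, and 0 of 9 tested genes in either stage had an unadjusted p under 0.05 in edgeR. Ifnar1, a chain of the type I receptor, had 70.1 to 77.4 CPM in control OPCs and 69.2 to 82.3 in SRF-KO OPCs.
Among 54 further interferon-induced genes, 21 were tested in OPCs, 5 were higher at an unadjusted p under 0.05 (23.8%, against 5.57% of all genes) and 0 lower (against 6.33%), and none was called. Irgm1, an interferon-induced GTPase, had 26.9, 23.8, 23.9 and 26.7 CPM in control OPCs and 32.5, 33.0 and 29.5 in SRF-KO OPCs, above all controls. The other 4 were Gbp7, Shisa5, Ifitm2 and Ifitm3, with log2 fold changes of 0.24 to 0.77. In OLs 27 of the 54 were tested, and 0 were lower and 1 higher at an unadjusted p under 0.05 (3.70%, against 5.84% of all genes), Ube2l6, the E2 enzyme that passes on ISG15, at 6.43 to 8.61 CPM in the controls and 8.64 to 15.5 in the knockouts.
In the further MHC class I list, the peptide-loading factor Tapbp was lower in SRF-KO OLs at an unadjusted p of 0.0274, with 67.1 to 82.7 CPM in the controls and 60.4 to 63.3 in the knockouts, and was 1 of 10 tested genes (10.0%, against 5.73% of all genes), while 0 were higher. In OPCs 1 of 12 tested genes was lower (8.33%, against 6.33% of all genes), the chaperone Calr, and 0 were higher. Of the sensing genes upstream of interferon, 10 were tested in each stage and 1 reached an unadjusted p under 0.05 (10.0%, against 5.57% higher over all genes), the adaptor Mavs, at 36.01 to 40.4 CPM in control OPCs against 44.1 to 51.1. Of the negative regulators, 5 were tested in each stage and 1 did so, the phosphatase Ptpn11, with a log2 fold change of -0.36 in OLs, where 5.73% of all genes were lower at that threshold. The constitutive proteasome subunits Psmb5, Psmb6 and Psmb7 did so in neither stage. In OLs, SRF-KO OL replicate 4 was their highest library too, at 227, 172 and 114 CPM. The other OL libraries had 106 to 172, 79.6 to 114 and 62.8 to 80.9 CPM. The MHC class II genes, markers of professional antigen-presenting cells, stayed at or below 8.49 CPM in every library. Of the NF-kappaB targets, 7 were tested in OPCs and 6 in OLs, and 1 in each (14.3% and 16.7%, against 5.57% and 5.84% of all genes) was higher at an unadjusted p under 0.05. Icam1, an adhesion molecule, was that gene in both stages, with 2.66 to 7.30 against 8.27 to 12.2 CPM in OPCs and 3.83 to 5.38 against 6.04 to 8.81 CPM in OLs, and its adjusted p was 0.303 and 0.146 in edgeR.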

How the data were processed

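Reads were 63-base single reads of polyA RNA from Smart-seq2 libraries, which do not mark strand, per the labels' protocols. bcl2fastq, STAR and RSEM were used by the authors, without versions and with GRCm38 and Rnor_6.0 as builds, per the submitters' processing notes. The deposited files give the authors' expected counts and TPM per gene. By the listed lengths of 8995 genes with 1 multi-exon transcript, OPC files count spliced transcripts (89.8% equal) and OL files gene bodies (90.0% equal). Total counts per library, given in the report, set the precision.

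Expected counts were rounded and tested within each stage in edgeR 4.0.16 under R 4.3.3 (filterByExpr, TMM, quasi-likelihood F-test, Benjamini-Hochberg threshold 0.05 over all genes tested). The SE was derived from the test, as the size of the log2 fold change over the square root of F. CPM carry TMM factors. Symbols came from the reference gene table and coordinates from GENCODE M21 on GRCm38. Alternatives were DESeq2 1.42.0, limma 3.58.1 (voom, or log2 of deposited TPM), other scalings, no filter, all 15 libraries in 1 fit, a replicate block and leaving out each library. The edgeR, DESeq2 and voom tests were checked on simulated counts, with changes placed in abundant genes and the same spread for all genes. That check does not cover scarce genes or the spread of the real libraries. No pair of replicates agreed within sampling noise. The genes and lists were chosen with earlier results of these data known. Values by library are given, in each stage, for the 2 genes of each role class with the smallest p and its most abundant gene. Of the further lists, genes with the smallest p are named, and any other gene named was chosen after its values were seen.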

Additional observations from a re-analysis of the deposited data

Results flagged for a closer look

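Among 41 groups of 4 libraries, 3 held a library far from the other 3, where chance gives about 1 in 20. Rsad2 had 2.42 CPM in control OPC replicate 3, against 0.945 to 1.12 in the other control OPCs. Trim25 had 9.55 CPM in control OPC replicate 1, against 6.08 to 6.27 in the others, and its knockout libraries (3.22 to 3.73 CPM) lie below all 4. Bst2 had 1.70 CPM in SRF-KO OL replicate 4, against 0.718 to 0.847 in the other SRF-KO OLs, on 9 counts.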

How the results depend on the processing

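The genes with an unadjusted p under 0.05 kept their sign under every alternative run. In OPCs, genes of the group with an adjusted p under 0.05 (0) became 1 with DESeq2 or without the filter; those lower at an unadjusted p under 0.05 (1) became 2 without the filter or in the fit of all 15 libraries; their median (0.19) was 0.37 with voom, 0.093 on TPM and 0.083 to 0.28 leaving out 1 library; and calls over all genes (9) were 139 with DESeq2, 101 without the filter, 5 on TPM, 31 in the fit of all 15 libraries and 1 to 4 leaving out 1 library. In OLs, the 1 call (Trim30a) became 0 on TPM and 0 to 1 leaving out 1 library; genes higher at an unadjusted p under 0.05 (4) were 7 on TPM; those lower (2) were 1 with library totals, on TPM or in the fit of all 15 libraries, and 1 to 2 leaving out 1 library. Their median (0.03) was 0.24 with library totals, 0.14 on TPM (all genes 0.17), 0.0053 without the filter, 0.0019 in the fit of all 15 libraries and 0.0045 to 0.086 leaving out 1 library. Calls over all genes (45) were 299 with DESeq2, 74 with library totals, 129 without the filter, 3 on TPM, 94 in the fit of all 15 libraries and 7 to 636 leaving out 1 library, the 636 without SRF-KO OL replicate 4. The cause was not tested.

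The labels do not say whether same-numbered libraries were made as pairs. Their deviations from the group means correlated at -0.011 to 0.076 in OPCs and -0.314 to 0.033 in OLs. Differently numbered libraries gave -0.069 to 0.056 and -0.268 to 0.316, so these values cannot decide it. With a replicate block the calls over all genes were 2 in OPCs and 5 in OLs, and in OLs the group had 0 calls, 1 gene lower at an unadjusted p under 0.05 and a median of 0.0065. Of the single-gene log2 fold changes under an alternative, 420 kept their direction and side of the threshold, 2 (Tap1 in OPCs) passed it, 6 (Trim30a in OLs) no longer did, and 17 changed sign, all for genes with an unadjusted p above 0.05. In OLs Irf1 (-0.11) was 0.10 with library totals and 0.19 on TPM, and Stat2 (-0.19) was 0.031 and 0.072. Rsad2 in OPCs (0.26) was -0.24 on TPM. The other sign changes came from leaving out 1 library: Ifih1 ranged from -0.27 to 0.56 in OPCs and from -0.10 to 0.16 in OLs, Irf1 from -0.038 to 0.20 and Stat2 from -0.088 to 0.28 in OPCs, and Usp18 from -0.031 to 0.24 in OLs. Low counts limit the scarce antiviral genes, most of which could not be tested.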
